A study of Mus musculus with 2 samples.

Results

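The genes described here are 46 inflammatory genes of macrophages, chosen by symbol with earlier results of these data known. They are 15 cytokines, 15 effectors (enzymes, secreted defence proteins and surface receptors) and 16 regulators and feedback inhibitors of NF-kappa B and cytokine signalling. All 46 symbols were found among the 23924 gene symbols of a deposited table of RNA immunoprecipitation followed by sequencing. Both libraries came from RAW 264.7, a mouse macrophage-like tumour cell line, in which mRrp6, a ribonuclease of the nuclear exosome and the product of Exosc10, had been depleted, and which received LPS at 80 ng/ml for 12 h. The nucleolin precipitate was nuclear RNA recovered with an antibody to nucleolin, a nucleolar RNA-binding protein, and the IgG control was RNA recovered from the same kind of nuclear extract with rabbit IgG. The sample with the title of nucleoplasmic RNAs was read as the nucleolin precipitate, because the series' design text names that antibody for nucleoplasmic RNA and its column carries the symbol of nucleolin. There was 1 library per antibody, and none of the differences was checked in replicates. How mRrp6 was depleted is not given in the sources used here, and no undepleted or unstimulated library was analysed here, so induction by LPS could not be checked.

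LPS is sensed by macrophages through Tlr4, whose adaptors activate the IKK kinases, and these release NF-kappa B dimers from inhibitor proteins so that they enter the nucleus and switch on cytokine and effector genes. Many of the same target genes encode brakes on the pathway, such as the inhibitor IkappaBalpha (Nfkbia), the deubiquitinase A20 (Tnfaip3) and the SOCS proteins. The messenger RNAs of cytokines are short-lived, and RNA-binding proteins such as tristetraprolin (Zfp36) and Regnase-1 (Zc3h12a) direct their decay. Nucleolin is itself known to bind messenger RNAs besides its role in ribosome production.

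NF-kappa B acts through the promoters and enhancers of these genes, and the table holds no sequence of the recovered RNA, so promoters are shown. They are those of 5 of the members with a value and a motif match, and that of Nfkbia, the classic inhibitor gene, which had no value above 0. Clec4e (TATAAA from 29 bases before the start), Plaur (TGACTCA from 69) and Icam1 (TATAAA after the start) also had a value and a match but are not printed. RefSeq promoters (GRCm38.p6) were matched for 34 of the 46 members. Each line below gives the 250 bases before the start listed for the promoter. Capitals mark matches to the NF-kappa B consensus, to TATAAA or to TGANTCA (the AP-1 site), searched on both strands. In none of the printed windows do matches of different motifs overlap. For Il1a, Il1b and Nfkb2 the listed start lies inside the gene span given further below, so distances count from the promoter's start and not from the end of the span.
Tnf, chr17:35202008-35202257, minus strand: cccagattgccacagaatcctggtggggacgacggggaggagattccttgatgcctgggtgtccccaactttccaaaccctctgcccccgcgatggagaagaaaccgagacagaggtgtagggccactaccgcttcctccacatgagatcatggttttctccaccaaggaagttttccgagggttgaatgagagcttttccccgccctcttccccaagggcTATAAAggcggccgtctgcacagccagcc
Il1b, chr2:129371140-129371389, minus strand: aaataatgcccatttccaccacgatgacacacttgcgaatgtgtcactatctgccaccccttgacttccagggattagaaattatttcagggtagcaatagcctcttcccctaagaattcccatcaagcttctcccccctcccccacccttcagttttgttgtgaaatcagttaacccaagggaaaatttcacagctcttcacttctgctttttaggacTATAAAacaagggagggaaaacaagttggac
Il1a, chr2:129309973-129310222, minus strand: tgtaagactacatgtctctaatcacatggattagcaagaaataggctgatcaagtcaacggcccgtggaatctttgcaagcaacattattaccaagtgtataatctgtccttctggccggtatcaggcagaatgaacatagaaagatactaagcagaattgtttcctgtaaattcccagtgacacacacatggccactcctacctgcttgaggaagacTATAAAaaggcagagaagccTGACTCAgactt
Irg1 (now Acod1), chr14:103046762-103047011, plus strand: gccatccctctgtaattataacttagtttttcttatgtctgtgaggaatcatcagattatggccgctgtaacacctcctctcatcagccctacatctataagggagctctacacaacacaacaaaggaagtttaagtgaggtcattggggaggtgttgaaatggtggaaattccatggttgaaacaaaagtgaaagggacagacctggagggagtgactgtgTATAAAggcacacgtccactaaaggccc
Nfkb2 (the most upstream of its 3 listed starts), chr19:46304487-46304736, plus strand: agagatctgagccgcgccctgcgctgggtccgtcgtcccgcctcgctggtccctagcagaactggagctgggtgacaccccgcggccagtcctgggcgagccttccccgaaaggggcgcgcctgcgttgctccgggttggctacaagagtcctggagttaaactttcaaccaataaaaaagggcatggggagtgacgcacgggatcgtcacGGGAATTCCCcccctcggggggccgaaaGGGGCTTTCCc
Nfkbia, chr12:55492648-55492897, minus strand: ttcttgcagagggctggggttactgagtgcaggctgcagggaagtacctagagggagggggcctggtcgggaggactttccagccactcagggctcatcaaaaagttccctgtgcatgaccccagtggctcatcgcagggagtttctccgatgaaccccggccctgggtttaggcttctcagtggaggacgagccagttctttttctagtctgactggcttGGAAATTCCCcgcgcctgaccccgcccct
In Tnf, Il1b, Il1a and Irg1 a TATAAA began 29, 31, 32 and 28 bases before the start. Il1a also held TGACTCA from 12 bases before the start. Nfkb2 held 2 NF-kappa B matches in this window, the one farther from the start palindromic and therefore found on both strands, and Nfkbia held 1.

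Over the full 300-base windows (250 before and 50 after the start), the NF-kappa B consensus matched in 8 of the 34 members (23.5%), against 6.55% of 27025 genes with a listed promoter. The 8 were Bcl3, Csf1, Il6, Nfkb2, Nfkbia, Tnfaip2, Tnfaip3 and Tnip1. Of these only Nfkb2 had a value above 0 in either library. TATAAA matched in 10 members (29.4%), against 15.7% of all genes, and TGANTCA in 8 (23.5%), against 8.97%. A match describes these letters only, and sites outside the windows were not searched.

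Depth limits every value that follows. FPKM, the deposited unit, scales fragments to transcript length and to the total that mapped. The worth of 1 read was estimated from genes whose span on the genome may be their whole transcript: among single-row genes with spans between 1000 and 6000 bases, 8 of 222 in the nucleolin precipitate had the same product of FPKM and span less 228 bases, and 19 of 262 in the IgG control had the same product of FPKM and span less 200 bases. These were read as genes without introns that hold 1 read, which was not checked against exon annotation, and every bound on reads given below rests on it. On that reading, a read in 1 kb of such reduced length was worth 16.5 FPKM in the nucleolin precipitate and 42.3 FPKM in the IgG control. If the divisor was the number of all mapped fragments, these values are those of libraries of 60667 (nucleolin) and 23642 (IgG) fragments. For a transcript of 2 kb, 3 reads come to 27.9 FPKM in the nucleolin precipitate and 70.5 FPKM in the IgG control, the level that a value of 0 still allows by counting error alone. The gene's span bounds its transcript length, so each value also has a largest possible number of reads, given below as "at most". Levels are FPKM throughout, differences are log2((nucleolin FPKM + 1) / (IgG FPKM + 1)), and "listed" means 0.1 FPKM or more.

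**Figure D1:**
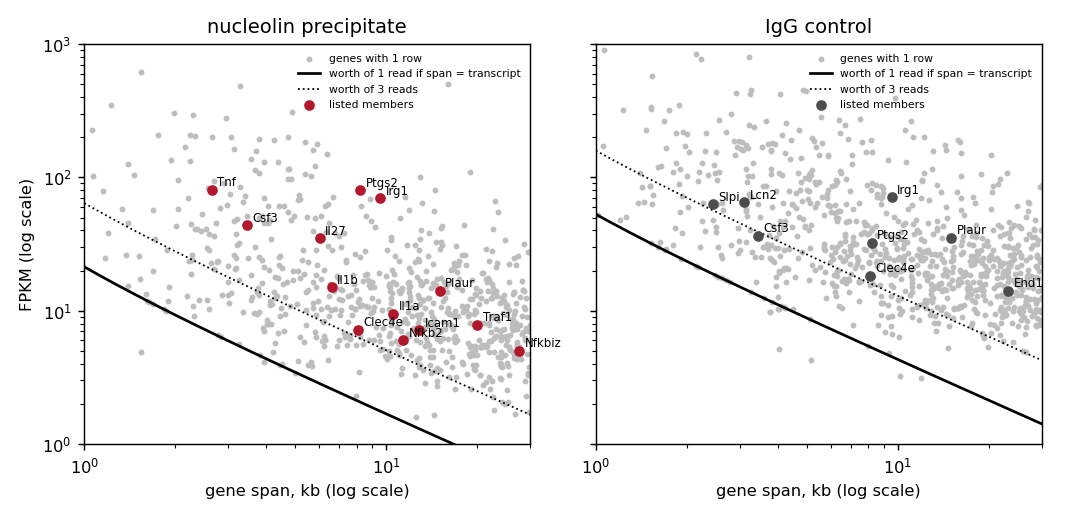
FPKM (log scale) of genes with 1 table row against the span of the gene in kb (log scale), in the nucleolin precipitate (left) and the IgG control (right). The solid line is the worth of 1 read for a gene whose span is its transcript, the dotted line that of 3 reads, and coloured points are listed members of span under 30 kb; Tnf at 81.0 FPKM can rest on at most 11 reads and Slpi at 62.7 FPKM on at most 3.

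The 2 libraries also differed in markers of cell types that RAW 264.7 is not. The nucleolin precipitate listed 0 of 12 gastric and pancreatic secretory genes and 0 of 7 epithelial genes. The IgG control listed 10 and 5 of them, summing to 20882 and 448 FPKM, against its label. The labels name only RAW 264.7 cells for both libraries, and the source of this RNA in the IgG control was not tested. Pgc (pepsinogen C, 5078 FPKM), Clps (colipase, 4349 FPKM) and Pla2g1b (a secreted phospholipase, 3265 FPKM) led the first list in the IgG control, and the keratins Krt8, Krt19 and Krt18 (185, 108 and 106 FPKM) the other. Macrophage markers were listed for 13 of 17 genes in the nucleolin precipitate (sum 761 FPKM) and 8 of 17 in the IgG control (sum 825 FPKM), where Lyz2, Csf1r, Coro1a, Itgam and Fcgr1 were at 0 (named as the markers missing there, after their values were seen). The 3 highest were Cd14, Lyz2 and Fcer1g in the nucleolin precipitate (207, 199.6 and 116 FPKM) and Cd14, Cd68 and Tyrobp in the IgG control (319, 138 and 116 FPKM). No listed value was found for 7 neutrophil, 5 mast cell, 4 B cell or 4 endothelial markers in either library. Of the fibroblast list, Col1a1 and Col3a1 were at 0 in the nucleolin precipitate and 18.8 and 15.8 FPKM in the IgG control, and of the T cell list Lck was at 8.92 FPKM in the nucleolin precipitate and 0 in the IgG control. The part of other cell types in the results below was not tested.

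Of the cytokines 5 were listed in the nucleolin precipitate and 1 in the IgG control, of the regulators 4 and 1, and of the effectors 5 and 7. Tnf, Il27, Il1b and Il1a among cytokines and Traf1, Nfkb2 and Nfkbiz among regulators had values in the nucleolin precipitate and 0 in the IgG control. The effector Icam1 was likewise listed in the nucleolin precipitate only, while Lcn2, Slpi and Ehd1 were listed in the IgG control only. Csf3, Ptgs2, Irg1, Plaur, Clec4e and Nfkb1 were listed in both. The other 29 members were at 0 in both libraries.

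Of the compared members, 8 were listed with nucleolin only (37.1% of all compared genes were), 3 in the IgG control only (46%) and 6 in both (16.8%). In all, 17 of 46 members (37.0%) reached 1 FPKM in at least 1 library and could be compared, against 3194 of 23924 symbols (13.4%). The nucleolin precipitate listed 14 members (30.4%, against 7.23% of all symbols) and the IgG control 9 (19.6%, against 8.40%). The members were chosen with earlier results of these data known, so these shares describe the list only. Of the 17, 9 were at least 2-fold higher with nucleolin, where 37.8% of all compared genes were, and 5 were at least 2-fold lower, where 56.7% were. Those that passed did so through the library in which they were listed, so a gene at 0 in the other library had to differ. The median log2 ratio of the 17 was 1.28, against -1.27 for all compared genes, and over the 6 members listed in both it was 0.10, against -1.19 for the 538 genes listed in both. With 1 read set to equal worth in both libraries, 12 members were higher and 3 lower, since the most frequent ratio of low genes, 0.392, was taken as equality; 157 of 246 low genes in both libraries had it, and the median log2 ratio of all genes moved to -0.00475. The summed level of the 46 members was 394 FPKM in the nucleolin precipitate and 346 FPKM in the IgG control.

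**Figure D2:**
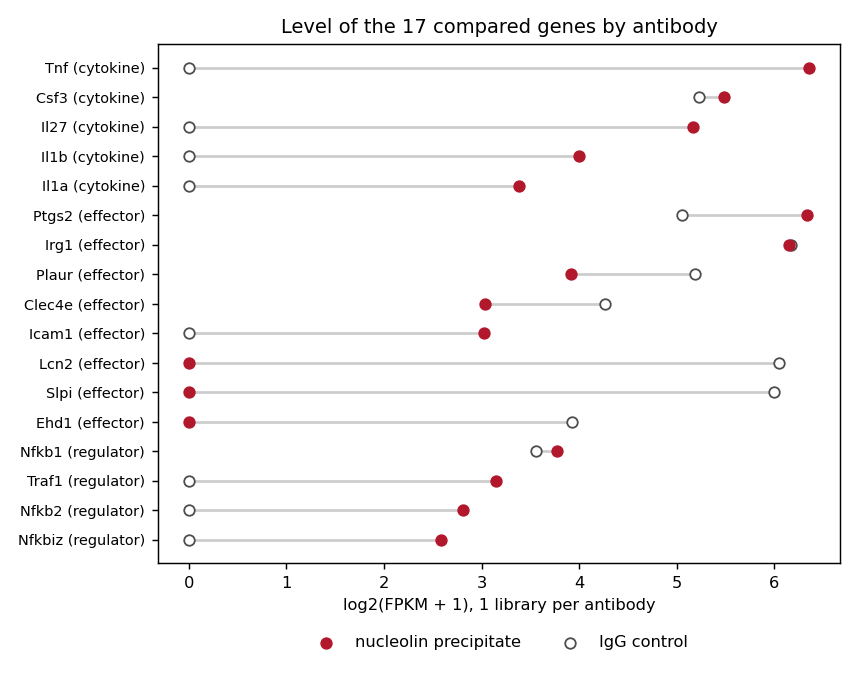
Level of each of the 17 compared members as log2(FPKM + 1), filled points for the nucleolin precipitate and open points for the IgG control, 1 library each, ordered within cytokines, effectors and regulators by the nucleolin value. Open points at 0 mark the 8 genes listed in the nucleolin precipitate only, and filled points at 0 mark Lcn2, Slpi and Ehd1.

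Of the 15 cytokines, 5 were compared, 4 were at least 2-fold higher with nucleolin and 0 were lower, where 37.8% and 56.7% of all compared genes were. The 4 were at 0 in the IgG control and so had to be higher once they passed the minimum level. The levels of the 15 summed to 184 FPKM in the nucleolin precipitate and 36.4 FPKM in the IgG control. Tnf, the early proinflammatory cytokine, was at 81.0 FPKM in the nucleolin precipitate and 0 in the IgG control. It ranked 65th from the top of the nucleolin precipitate, and it lies on chr17:35199367-35202007. Its level stood on 1 of its 2 table rows, which held 99.99% of it. At most 11 nucleolin reads lay behind the value, and 3 IgG reads would come to at least 52.0 FPKM, so the 0 in the IgG control allows a level of that order.

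Il27, which encodes a subunit of interleukin 27, a cytokine that shapes T cell responses, was at 34.9 FPKM in the nucleolin precipitate and 0 in the IgG control (chr7:126589009-126595035). It rested on at most 12 reads, and 3 IgG reads would come to at least 21.8 FPKM. The neighbouring genes of the interleukin 1 ligands both followed the same pattern at lower levels. Il1b, the secreted ligand cut from its precursor by caspase-1, was at 15.03 FPKM in the nucleolin precipitate and 0 in the IgG control (chr2:129364569-129371164). Il1a, the ligand active without that cleavage, was at 9.44 FPKM in the nucleolin precipitate and 0 in the IgG control (chr2:129299609-129310186). For both, the worth of 3 IgG reads (at least 19.8 and 12.2 FPKM) was above the nucleolin value, so a difference between the libraries was not detectable at this depth.

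Csf3, encoding the granulocyte colony-stimulating factor, was the only cytokine of the list found in both libraries. It was at 43.6 FPKM in the nucleolin precipitate and 36.4 FPKM in the IgG control (chr11:98700183-98703631). The values matched 3 nucleolin reads to 1 IgG read, which put the transcript at 1361 and 1362 bases in the 2 libraries, and no larger pair fell within the span of the gene at the tolerance used. The FPKM ratio of 1.20 had an exact 95% interval from 0.0962 to 62.9, counting error only. With 1 read set equal, its log2 ratio was 1.58 in place of 0.25, past 2-fold. That value rests on the same 3 nucleolin reads to 1 IgG read, and no interval was worked out for it. Il6, Il10, Il12b, Il23a, Lif, Csf1, Csf2, Il1rn, Tnfsf9 and Osm were at 0 in both libraries. Among them Il10 and Il1rn encode anti-inflammatory proteins, and Il12b and Il23a the subunits of interleukin 23.

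Of the 15 effector genes, 8 were compared, 2 at least 2-fold higher with nucleolin (25.0%, against 37.8% of all compared genes), 5 at least 2-fold lower (62.5%, against 56.7%) and 1 between. The lower share is near that of all genes. Their levels summed to 178 FPKM in the nucleolin precipitate and 299 FPKM in the IgG control. The highest effectors of the nucleolin precipitate were the enzyme genes Ptgs2 and Irg1, and both were also listed in the IgG control. Ptgs2, the inducible cyclooxygenase that starts prostaglandin synthesis, was at 79.8 FPKM in the nucleolin precipitate and 32.1 FPKM in the IgG control (chr1:150100031-150108234). This made it 2.48 times higher with nucleolin, a log2 ratio of 1.28. The smallest matching pair was 19 nucleolin reads to 3 IgG reads, with a 95% interval of that ratio from 0.730 to 13.1. The largest pair that the gene's span allowed was 38 to 6, with an interval from 1.04 to 7.18.

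Irg1, the mitochondrial enzyme that makes itaconate, was at 69.8 FPKM in the nucleolin precipitate and 70.8 FPKM in the IgG control (chr14:103047012-103056573). It was the highest member in the IgG control, at rank 246 there and rank 77 in the nucleolin precipitate. The smallest matching pair was 10 nucleolin reads to 4 IgG reads, and the ratio of 0.985 had a 95% interval from 0.284 to 4.30; the largest was 20 to 8, with an interval from 0.415 to 2.58. Its log2 ratio of -0.02 as deposited turned to 1.32 with 1 read set equal.

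Plaur, the urokinase receptor, was at 14.1 FPKM in the nucleolin precipitate and 35.4 FPKM in the IgG control. Clec4e, the lectin receptor Mincle, was at 7.19 FPKM in the nucleolin precipitate and 18.2 FPKM in the IgG control. Both matched 1 read in each library (for Clec4e, 2 in each also fell within the span), with log2 ratios of -1.27 and -1.23 as deposited that turned to 0.02 and 0.01 with 1 read set equal. Their FPKM ratios of 0.399 and 0.394 had 95% intervals from 0.00509 to 31.3 and from 0.00502 to 30.9. Icam1, the leukocyte adhesion receptor, was at 7.12 FPKM in the nucleolin precipitate and 0 in the IgG control, where 3 reads would come to at least 10.0 FPKM.

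Lcn2, Slpi and Ehd1 made up the members listed in the IgG control only. Lcn2, the iron-scavenging lipocalin, was at 0 in the nucleolin precipitate and 65.0 FPKM in the IgG control (chr2:32384637-32387739), on at most 4 reads. Slpi, a secreted protease inhibitor, was at 0 in the nucleolin precipitate and 62.7 FPKM in the IgG control (chr2:164354070-164356507), on at most 3 reads. Ehd1, a membrane-trafficking ATPase, was at 0 in the nucleolin precipitate and 14.2 FPKM in the IgG control, on at most 7 reads. Lcn2 and Slpi are also products of mucosal epithelia, and they stood in the library that listed Krt8, Pgc and the other epithelial and gastric genes above; the part of those cells in their values was not tested. In the nucleolin precipitate 3 reads would come to at least 17.2 FPKM for Lcn2, 22.4 FPKM for Slpi and 2.15 FPKM for Ehd1. These are the smallest worths that the spans allow, and for a transcript of 1 kb 3 nucleolin reads come to 64.1 FPKM. The true worth is higher for a transcript shorter than the span, so these 3 genes are not shown to differ between the libraries. Their read numbers above are upper bounds. In transcripts of 1, 2 and 4 kb, 1 IgG read comes to 52.9, 23.5 and 11.1 FPKM. Ehd1 lies in that range and may rest on 1 read. Lcn2 and Slpi lie above it, and may also rest on 1 read if their transcripts are shorter than 1 kb. Nos2 (inducible nitric oxide synthase), Ptges, Saa3, Mmp9, Mmp13, Gpr84 and Tnfaip2 were at 0 in both libraries.

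Of the 16 regulators, 4 were compared, 3 at least 2-fold higher with nucleolin and 0 lower, where 37.8% and 56.7% of all compared genes were. The 3 were at 0 in the IgG control and had to be higher once they passed the minimum level. The 16 had summed levels of 31.5 FPKM in the nucleolin precipitate and 10.8 FPKM in the IgG control. The 4 included the genes of both NF-kappa B precursors. Nfkb1, encoding p105, the precursor of p50, was at 12.7 FPKM in the nucleolin precipitate and 10.8 FPKM in the IgG control (chr3:135584655-135691969). The smallest matching pair was 3 nucleolin reads to 1 IgG read, at implied transcript lengths of 4127 and 4120 bases, and the ratio of 1.18 had a 95% interval from 0.0944 to 61.7; this long gene also allowed larger pairs in the same proportion. Its log2 ratio of 0.21 moved to 1.50 with 1 read set equal, also past 2-fold, and no interval was worked out for that value. Nfkb2, encoding p100, the precursor of p52, was at 5.99 FPKM in the nucleolin precipitate and 0 in the IgG control (chr19:46300994-46312400), with 98.9% of the level on 1 of 3 table rows and at most 4 reads.

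Traf1, an adaptor of TNF receptors, was at 7.85 FPKM in the nucleolin precipitate and 0 in the IgG control. Nfkbiz, the nuclear inhibitor-family protein IkappaBzeta, needed for a subset of secondary response genes, was at 5.02 FPKM in the nucleolin precipitate and 0 in the IgG control, with 99.2% of it on 1 of 3 rows. For Nfkb2 the worth of 3 IgG reads, at least 11.3 FPKM, was above the nucleolin value. For Traf1 and Nfkbiz that worth was at least 6.39 and 4.63 FPKM, a bound set by long genes with introns, so whether their IgG value of 0 differs from the nucleolin value could not be settled. Across all 8 genes listed in the nucleolin precipitate only, the value was under the IgG worth of 3 reads in at least 4 (Il1b, Il1a, Icam1 and Nfkb2). For Tnf, Il27, Traf1 and Nfkbiz it was above the smallest such worth that the span allows, and the true worth is higher for a transcript shorter than the span, so these 4 are not shown to differ either. The largest possible read number of the 8 genes lay between 4 and 12, and the actual numbers may be lower. In transcripts of 1, 2 and 4 kb, 1 nucleolin read comes to 21.4, 9.30 and 4.37 FPKM. The values of Il1b, Il1a, Traf1, Icam1, Nfkb2 and Nfkbiz lie in that range, so each may rest on 1 read.

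Several feedback inhibitors of the pathway were not listed, while Nfkbiz of the inhibitor family was, in the nucleolin precipitate. Nfkbia, Tnfaip3, Tnip1 (a partner of A20), Zc3h12a, Zfp36, Socs1, Socs3, Cish, Irak3 (an inhibitory kinase of Toll-like receptor signalling) and Bcl3 were at 0 in both libraries, as were Relb and the survival factor Birc3. A value of 0 in a transcript of 2 kb allows 27.9 FPKM in the nucleolin precipitate and 70.5 FPKM in the IgG control, levels above those at which Nfkb1 and Nfkb2 were listed. These genes were therefore not detected at this depth, and their absence from either library is not shown.

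**Figure D3:**
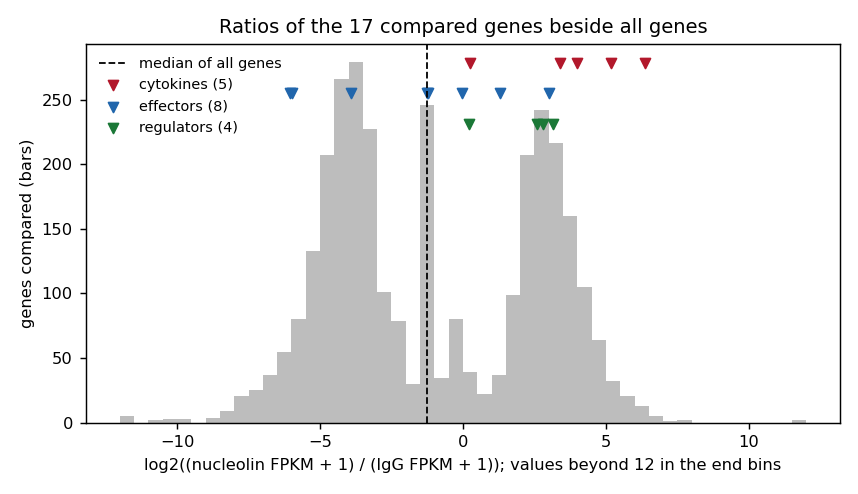
Number of genes (grey bars) by log2((nucleolin FPKM + 1) / (IgG FPKM + 1)) over the 3194 genes compared, with triangles at the ratios of the 5 cytokines, 8 effectors and 4 regulators compared and a dashed line at the median of all genes, -1.27. The side peaks hold genes at or near 0 in one library; cytokines and regulators lie at 0.21 or above, and effectors lie on both sides, from -6.04 (Lcn2) to 3.02 (Icam1).

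By position, 5 of the 17 compared members (Il1a, Il1b, Lcn2, Slpi and Traf1) lie on chromosome 2, and no other chromosome held more than 2. Il1rn, Ptges and Mmp9, not listed in either library, lie on chromosome 2 as well, and Il1a and Il1b are neighbours. The share of all compared genes on chromosome 2 was not worked out, so this count describes the chosen list only. Of the 5 compared there, 3 were listed in the nucleolin precipitate only and 2 in the IgG control only. Of the 17, 14 had 1 table row and 3 had several.

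Other genes of the pathway are given beside the same shares of all compared genes, 37.8% higher and 56.7% lower. In each list most genes called were at 0 in 1 library and had to differ. These lists too were chosen with earlier results of these data known. Of 23 genes for the LPS receptor and its signalling, 6 were compared (26.1%, against 13.4% of all symbols), 4 at least 2-fold higher with nucleolin, all of them at 0 in the IgG control, and 1 lower. Cd14, the co-receptor that passes LPS to Tlr4, was at 207 FPKM in the nucleolin precipitate and 319 FPKM in the IgG control. Irf5 and Irf3, transcription factors of the pathway, were at 16.8 and 9.14 FPKM in the nucleolin precipitate and 0 in the IgG control. Ikbkb, the kinase that marks inhibitor proteins for destruction, was at 0 in the nucleolin precipitate and 37.4 FPKM in the IgG control. Of 11 other NF-kappa B and inhibitor genes only Nfkbid was compared, at 9.25 FPKM in the nucleolin precipitate and 0 in the IgG control.

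Of 20 receptors for the member cytokines, 8 were compared (40.0%), 5 at least 2-fold higher with nucleolin and 2 lower, each of the 7 at 0 in 1 library. Csf1r (the receptor of Csf1), Il6ra and Tnfrsf1b were highest there, at 22.6, 15.8 and 10.5 FPKM, and in the IgG control they were at 0, 0 and 8.97 FPKM. Tnfrsf1a, the main TNF receptor of most cells, and Lifr were at 0 in the nucleolin precipitate and at 21.6 and 16.0 FPKM in the IgG control. Of 13 genes for proteins that bind AU-rich elements in messenger RNAs, 7 were compared (53.8%), 2 at least 2-fold higher with nucleolin and 4 lower, of which 5 were at 0 or near it in 1 library. Tial1, Hnrnpab and Ncl (nucleolin itself) were highest in the nucleolin precipitate, at 8.09, 7.57 and 6.14 FPKM, against 0, 0 and 5.25 FPKM in the IgG control. Khsrp, a decay-promoting protein, Hnrnpd and Zfp36l2 were at 0, 2.55 and 0 FPKM in the nucleolin precipitate and 33.4, 12.9 and 12.7 FPKM in the IgG control. Few genes of these lists were listed in both libraries: 1 of the signalling list (Cd14, a log2 ratio of -0.62), 1 of the receptors (Tnfrsf1b, 0.21) and 2 of the last list (Ncl and Hnrnpd, 0.19 and -1.97), against a median of -1.19 for all 538 genes in both. Their medians over all compared genes, 2.67, 2.32 and -1.97, rest mostly on genes at 0 in 1 library.

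**Figure D4:**
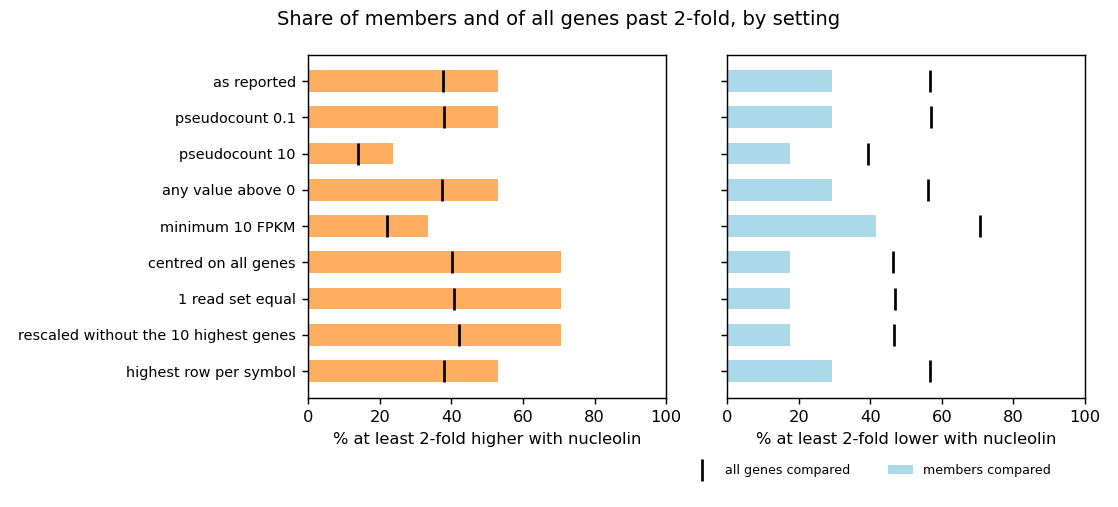
Share of the compared members (bars) and of all compared genes (black ticks) at least 2-fold higher (left) or lower (right) in the nucleolin precipitate, in %, for the values as reported and 8 other settings. In each setting the bar for higher members ends above the tick and the bar for lower members ends below it. With 1 read set equal, 12 of 17 members were higher and 3 lower. The 8 members listed with nucleolin only and the 3 listed with IgG only could not change direction in any setting. Members were chosen with earlier results of these data known, so the shares describe the list only.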

How the data were processed

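RNA from 1 nucleolin and 1 IgG immunoprecipitation was measured. The values are FPKM per transcript row, made by the authors, per the file headers, in 33529 rows. Trimmomatic 0.32, FastQC 0.10.0 and build mm10 are named in the submitters' processing notes; the aligner, the quantification tool and the handling of strand and multi-mapped reads were not given in the sources used here. Rows without a symbol (56) were left out and the rest summed per symbol. Gene spans and promoters came from RefSeq (GRCm38.p6), which held 99.7% of the gene IDs and those of all members.

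Genes reaching 1 FPKM in at least 1 library were compared with a pseudocount of 1, which understates changes of low genes, at 2-fold, with no test. The worth of 1 read was the constant shared by more single-row genes than any other (8 of 222 with nucleolin, 19 of 262 with IgG). It was sought within a window of 0.4%, scanning the length offset. A second route through 157 genes in both libraries gave 16.4 FPKM and 232 bases for the nucleolin precipitate. That route took the IgG constant and offset as given and equal reads in those genes as assumed. It is therefore not an independent check and does not test the IgG fit. Read pairs had implied lengths within 0.5% of each other. Both steps were chosen after seeing the values, and intervals are exact (Clopper-Pearson) and cover counting error only. Members and lists were chosen with earlier results of these data known. Every member was named, and from the other lists up to 3 genes highest in each library, beside macrophage markers missing from the IgG control. TATAAA and TGANTCA, and the printed promoters, were added after seeing the data. The alternatives were other pseudocounts, minimum levels, centring, scaling and the highest row per symbol. The log2 ratio, the fit of the worth of 1 read and the most frequent ratio were tested on simulated data. The ratio was simulated at deep counts, unlike the few reads of most members. The fit was simulated with a larger share of genes without introns than the shares found on the line here. The read pairs reported and their intervals were not tested in this way. Scripts ran under scipy 1.17.1, numpy 2.4.6, pandas 2.3.3, matplotlib 3.10.9 and Python 3.11.15.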

Additional observations from a re-analysis of the deposited data

How the results depend on the processing

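With 1 library per antibody no replicate could be left out. No paired analysis was possible because each group has 1 library. Of 17 compared members, 14 kept the sign of their log2 ratio in every setting where they were compared. For the 8 listed with nucleolin only and the 3 listed in the IgG control only, this was largely fixed in advance. They were at 0 in 1 library, so no pseudocount, minimum level, scaling or choice of row could change the sign. The members that changed sign were Irg1 (-0.02 as reported), Plaur and Clec4e, all among the 6 listed in both libraries. Clec4e turned to 0.0345 when centred on all genes, 0.00581 with 1 read set equal and 0.0679 when rescaled without the 10 highest genes of either library; Plaur turned to 0.000906, 0.0243 and 0.0868, and Irg1 to 1.25, 1.32 and 1.39 in the same settings, all of which raise the ratio of genes listed in both libraries. In these 3 settings 12 members were higher, 3 were lower and the median log2 ratio was 2.55, 2.62 and 2.72, against 9, 5 and 1.28 as reported. With a pseudocount of 10, which shrinks ratios of low genes, 4 were higher and 3 lower (median 0.59), and with 0.1 the median was 1.31. At a minimum of 10 FPKM 12 members remained, 4 higher and 5 lower, with a median of 0.10; that minimum lies between the worth of 1 read of a 2 kb transcript in the nucleolin precipitate (9.30 FPKM) and in the IgG control (23.5 FPKM).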
